A study of Rattus norvegicus with 12 samples.

Results

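Small heat shock proteins are ATP-independent chaperones that bind unfolding proteins and hold them for the refolding machines. Hspb8 pairs with the co-chaperone Bag3, which also carries a domain that binds the HSP70 chaperones, and the complex sends damaged cytoskeletal proteins such as filamins to autophagy. Hsf1, the heat shock transcription factor, drives many of these genes, and J-domain proteins such as Dnajb1 and the constitutive HSP70 Hspa8 and the inducible HSP90 Hsp90aa1 do the refolding.

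The 10 genes described here are Hspb8, 4 other small heat shock proteins (Hspb1, Hspb6, Hspb7 and Cryab), the co-chaperones Bag3 and Dnajb1, the factor Hsf1, and the chaperones Hsp90aa1 and Hspa8. Each was taken as the gene record that carries its symbol. Every symbol had 1 record among the 22442 gene records measured, and all 10 had an average of 1 FPKM or more, the limit that left 11611 records for testing. Hspb8 was selected on its FPKM in these libraries, which stands at 2 levels, so its values are given without a test. The other 9 genes, called its partners here, were taken for their role beside it, and the question was whether any of them follows its 2 levels.

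RNA-seq of poly(A) RNA was performed on fibroblast-like synoviocytes (FLS), the fibroblasts of the joint lining. The cells came from the synovium of male Sprague Dawley rats given adjuvant arthritis (AA) with complete Freund's adjuvant, and had been passaged before use. The FCA group had DMEM medium with nothing added. Taurochenodeoxycholic acid (TCDCA), a taurine-conjugated bile acid, was given for 12 h at 10 µM (AT10), 1 µM (AT1) or 0.1 µM (AT01). Each group had 3 libraries, so all 12 libraries are of arthritic rats and none of healthy ones, and the study calls the 3 of a group repeats without saying whether they were separate animals or cultures. The p-values therefore measure the spread between these libraries, which may be technical.

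The values are FPKM, fragment counts scaled to transcript length and to the mapped fragments of the library, which allow levels of genes to be compared per length. FPKM summed to between 284210 and 309696 in a library, and 11471 to 11679 records reached 1 FPKM. The reads of each library, which the study lists, are not used here, and the values come without counts per gene, so the counting error of a single value is not known. The synovial fibroblast markers that were found (9 of 11, among them Col1a1, Thy1 and Prg4) summed to between 3686 and 5575 FPKM. All 5 endothelial markers found were below 1 FPKM in all libraries, as were 3 of the 6 macrophage markers found. The other macrophage markers found were Cd14 at 3.6 to 18.82 FPKM, Cd68 at 1.66 to 2.91 and Lyz2 at 0.02 to 1.0. The smooth muscle and myofibroblast markers were present, with the actin Acta2 between 125 and 370 FPKM.

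The promoters of some partners hold a short stretch that is also in that of Hspb8, and it is shown here because these genes share those letters and not the 2 levels of Hspb8. Heat shock factors bind inverted repeats of the letters GAA. RefSeq promoter windows (rat build GRCr8, 250 bases before and 50 after the gene start) were on hand for 7 of the 10 genes, and the motif GAANNTTC, which reads the same on both strands, was in 6 of those 7 and in 8.59% of 33469 promoters. The other order of the 2 repeats, TTCNNGAA, was in only 2 of the 7 (Hspb6 and Hspa8) and in 8.77% of all promoters. The exact letters of the match in Hspb8, GAAGTTTC, were in 3 of the 6 partners with a window (Hspb1, Hspb6 and Bag3) and in 1.39% of all promoters, searched on both strands. The 6 windows below run 5′ to 3′ on the strand of the gene, with 1 match in capitals and 20 bases on each side. Hspb1, Dnajb1 and Hspa8 each hold a further GAANNTTC match, which for Hspb1 stands in lower case at the end of its window and for the other two lies outside it.
Hspb8, chr12:45837265-45837312, plus strand: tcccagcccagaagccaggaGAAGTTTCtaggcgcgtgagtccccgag
Hspb1, chr12:26432403-26432450, minus strand: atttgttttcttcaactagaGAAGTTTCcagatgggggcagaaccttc
Hspb6, chr1:94934203-94934250, plus strand: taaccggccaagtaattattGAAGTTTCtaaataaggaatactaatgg
Bag3, chr1:192533308-192533355, plus strand: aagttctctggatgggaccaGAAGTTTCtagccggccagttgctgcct
Dnajb1, chr19:41431125-41431172, minus strand: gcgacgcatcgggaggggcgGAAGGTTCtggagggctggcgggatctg
Hspa8, chr8:50080281-50080333, plus strand: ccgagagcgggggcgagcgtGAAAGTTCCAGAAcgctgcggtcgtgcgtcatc

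The match of Hspb8 begins 23 bases before its gene start, and those of Hspb1, Bag3 and Hspb6 begin 129, 132 and 149 bases before theirs. The window of Hspa8 holds the longer motif GAANNTTCNNGAA, which contains the shorter one and was in 0.8% of all promoters and in none of the other 6 windows of these genes. Hspb7, a small heat shock protein known from heart muscle, was the gene among the 7 with no GAANNTTC match, which says only that these letters are not in its window. A match is a description of letters and not of binding.

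Hspb8 measured 9.86, 10.21 and 95.78 FPKM in the 3 FCA libraries, 9.08, 9.17 and 10.84 in AT10, 149.56, 100.07 and 91.37 in AT1, and 10.15, 96.66 and 7.92 in AT01. It was thus at an upper level in 5 libraries (FCA replicate 3, all 3 of AT1 and AT01 replicate 2) and at a lower level in the other 7, and FCA and AT01 each held both levels. The lowest value of the upper level was 8.43 times the highest value of the lower level. No library lay between 10.84 and 91.37 FPKM. The coefficient of variation (CV) over the 12 libraries was 104%, and 98.2% of the tested records had a smaller one. Both values restate the 2 levels on which Hspb8 was selected.

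The rank of Hspb8 among the small heat shock proteins restates the 2 levels on which it was selected and is no separate result. In the 5 upper libraries Hspb8 supplied 57.1% to 75.7% of the summed FPKM of the 11 genes on the small heat shock protein list and ranked first. In the 7 lower libraries it supplied 12.6% to 19.3%, and Cryab ranked first in each of them. The sum of the family without Hspb8 was between 42.2 and 72.0 FPKM over all libraries. The 7 records whose assembly numbers lie within 4 of that of Hspb8 all overlapped between its 2 levels. Prkab1, a subunit of the energy sensor AMPK, stayed between 19.7 and 24.2 FPKM, and Suds3, of a histone deacetylase complex, between 23.5 and 27.0. The records of Srrm4, a splicing factor of neurons, stayed below 1 FPKM, and those of Cit, a kinase of cell division, between 1.74 and 2.64.

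**Figure D1:**
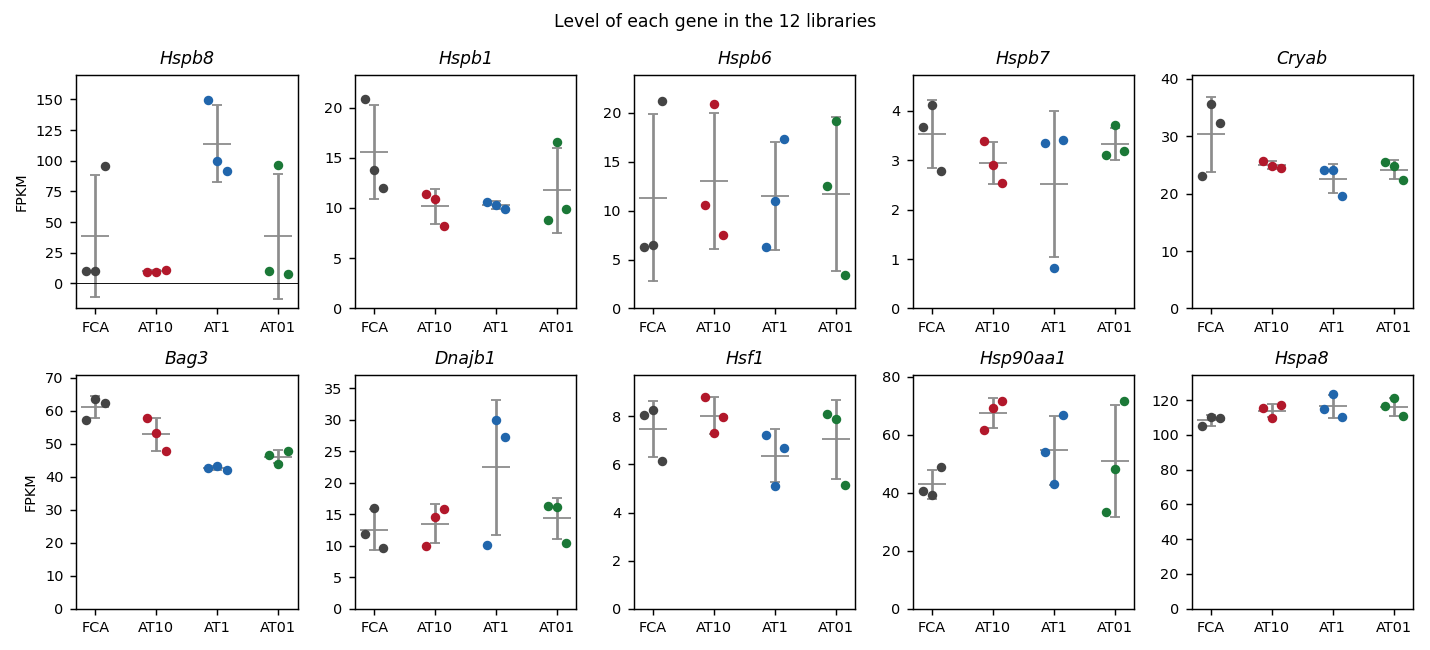
FPKM (vertical axis, linear, a scale per panel) of each of the 10 genes in the 4 groups (horizontal axis); points are libraries and grey bars are the mean ± SD of 3 libraries. Hspb8 lies either at 7.92 to 10.84 or at 91.37 to 149.56 FPKM, and no other panel is parted in that way.

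No partner followed the 2 levels of Hspb8. For 0 of the 9 partners were the values in the 5 upper libraries apart from those in the 7 lower ones, and over all tested records this held for 23, Hspb8 among them, or 0.198%. Nor did any partner have 2 levels of its own, defined as a widest gap of at least 1 between sorted log2(FPKM + 1) values that exceeds the range of either side and leaves at least 2 libraries on each, while 525 of the 11611 records did. Of 71 other genes on the chaperone lists, 0 were parted by the levels of Hspb8 and 1, the co-chaperone Bag5, had 2 levels of its own. Bag5 was at 10.97 FPKM or more in FCA replicates 2 and 3, AT1 replicates 2 and 3 and AT01 replicates 1 and 2. It was at 1.33 or less in the other 6 libraries. The 2 levels of Bag5 placed 9 of the 12 libraries as those of Hspb8 did, so the match was partial.

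**Figure D2:**
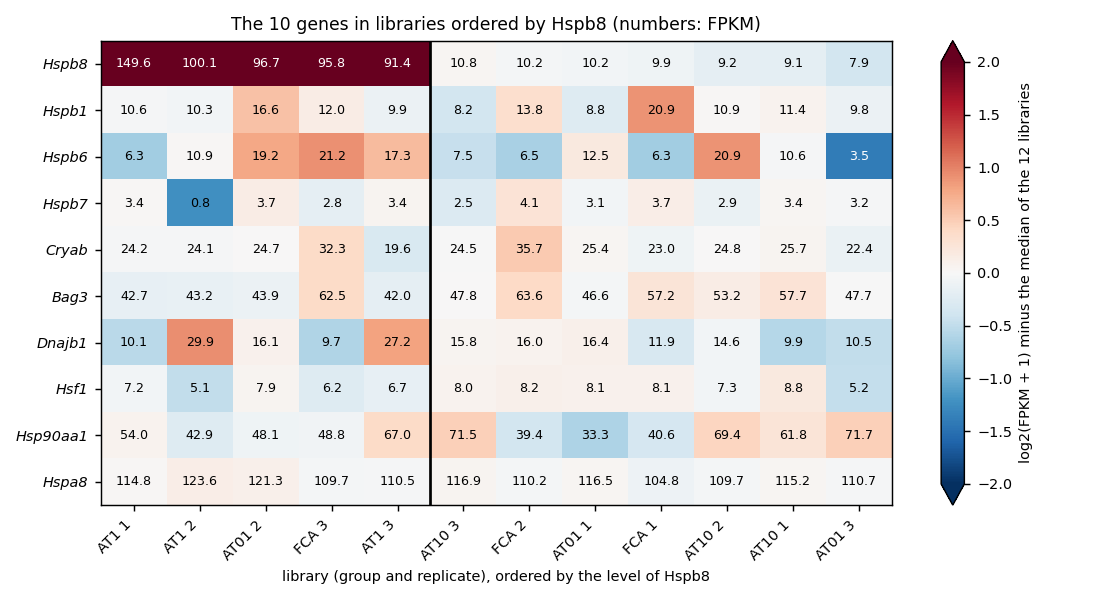
The 10 genes (rows) in the 12 libraries (columns, ordered by Hspb8, with a black line between its 2 levels); colour is log2(FPKM + 1) minus the gene's median over the libraries, capped at 2 in either direction, and the number is FPKM. Only the Hspb8 row turns at the black line, and the Bag3 row is pale blue left of it except in FCA replicate 3 at 62.5 FPKM.

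Bag3, the direct partner of Hspb8, came nearest and in the opposite direction. It was at 41.95 to 43.89 FPKM in 4 of the 5 upper libraries, below all 7 lower libraries at 46.56 to 63.58, and at 62.45 in FCA replicate 3, the remaining upper library. Without that FCA library its values at the 2 levels no longer overlapped, and it was then the single partner of which this was true. This came from leaving out each of the 12 libraries in turn, and the library left out is the one that goes against the order. The share of all tested records without overlap once that library is left out was not computed, so this count cannot be set against it. The 4 low libraries are the 3 of AT1 and 1 of AT01, so the order of Bag3 and its difference between groups cannot be told apart here.

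The remaining partners overlapped broadly. Hspb6 had 3 of its 5 highest values in the upper libraries, but 20.86 FPKM in AT10 replicate 2, a lower library, was nearly its maximum of 21.21. Dnajb1 exceeded all lower libraries in 2 upper ones, AT1 replicates 2 and 3 at 29.92 and 27.23 FPKM, and was at its minimum of 9.71 in FCA replicate 3. Hsf1 had none of its 5 highest values in the upper libraries, where it measured 5.12 to 7.89 FPKM against 5.16 to 8.82 in the lower ones.

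By the definition of 2 levels given above, 524 other tested records had 2 levels of their own. None of these had the same 5 libraries on one side of its gap and the same 7 on the other. The 23 records without overlap between the levels of Hspb8, itself among them, were counted without that definition. The nearest of the 524 were 14 records that placed 10 of the 12 libraries as Hspb8 did, on the same or the opposite side. One of them, chosen after its values were seen, was Oaf, a secreted protein gene. It measured 164 to 186 FPKM in the 3 AT1 libraries and AT01 replicate 2, as Hspb8 was also high there, but its high FCA library was replicate 2, at 224 FPKM, and FCA replicate 3 was at 49.9.

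Within the 7 lower libraries, a correlation with Hspb8 on the log2(FPKM + 1) scale could be computed for each partner. The largest values were those of Hsf1 and Dnajb1. For Dnajb1, Pearson's r was 0.75 (exact permutation p = 0.0397, adjusted over 9 partners 0.331) and Spearman's rho 0.786 (exact p = 0.048, adjusted 0.432), with r = 0.657 when the 2 libraries farthest from the median of Hspb8 were left out. For Hsf1, r was 0.755 (exact permutation p = 0.0736, adjusted 0.331) and rho 0.25 (exact p = 0.595), and r dropped to 0.073 without those 2 libraries. Leaving them out left 5 libraries and moved other partners too, from -0.456 to -0.952 for Hsp90aa1 and from 0.253 to -0.583 for Hspb6. No partner passed the adjustment, and Hspb8 itself spans only 7.92 to 10.84 FPKM in these libraries. The 5 upper libraries were too few for a correlation.

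The comparisons of TCDCA with FCA asked whether the bile acid shifts these genes. Each was fitted with limma on log2(FPKM + 1), and a fold change on that scale understates the change of low genes. Calls were made by the study's own criterion, which asks for a log2 fold change beyond 1 in either direction at an unadjusted p under 0.05, and by an adjusted p under 0.05, with the Benjamini-Hochberg adjustment taken over all records tested. None of the 9 partners was called by limma under either rule in any of the 7 comparisons. Over all tested records the criterion called 0.706% in AT10, 0.62% in AT1 and 0.758% in AT01 against FCA, and the adjusted p called 0.172%, 0.0947% and 0.0947%. An unadjusted p under 0.05 was given to 1 partner in AT10, 2 in AT1 and 1 in AT01, against 11.9%, 11% and 6.6% of all records. For the 9 TCDCA libraries against FCA the criterion called 0.491% and the adjusted p 0.0258% of all records, while an unadjusted p under 0.05 was given to 12% of them and to 3 of the 9 partners (Bag3, Cryab and Hspb1). In that comparison 2.86% of all records and 0 partners had groups without overlap. The doses share the 3 FCA libraries, so these comparisons are not independent of each other.

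**Figure D3:**
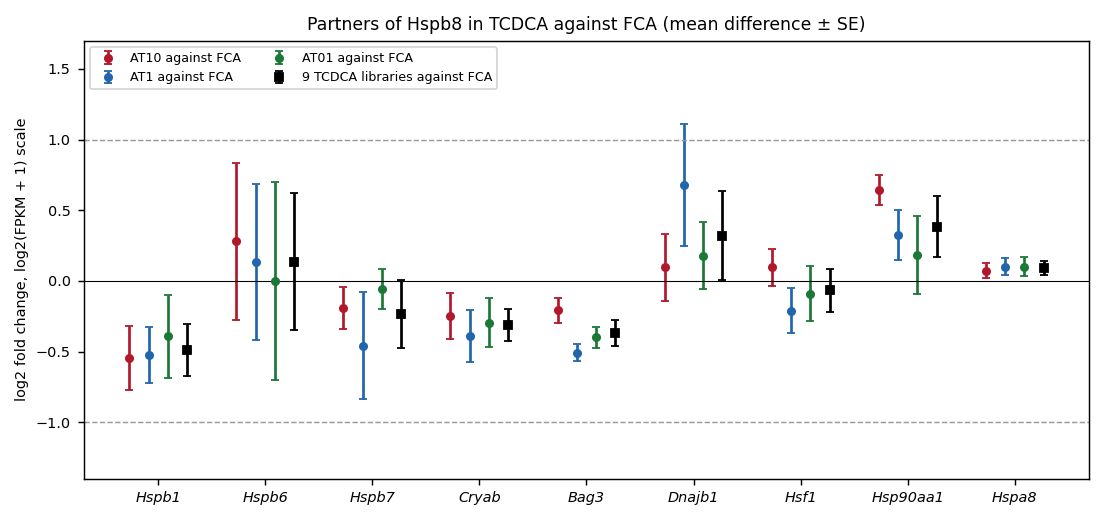
Log2 fold change on the log2(FPKM + 1) scale (vertical axis, points or squares with SE) of the 9 partners of Hspb8 in AT10, AT1 and AT01 (3 libraries each) and in the 9 TCDCA libraries together against the 3 FCA libraries. All values lie inside the dashed lines at -1 and 1, with Hsp90aa1 in AT10 at 0.65, Bag3 in AT1 at -0.51 and Dnajb1 in AT1 at 0.68 with an SE of 0.43.

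Among the co-chaperones, Bag3 was lower in mean at every dose of TCDCA. It measured 57.24, 63.58 and 62.45 FPKM in FCA, 57.68, 53.22 and 47.77 in AT10, 42.71, 43.22 and 41.95 in AT1, and 46.56, 43.89 and 47.74 in AT01. All libraries of AT1 and AT01 lay below all of FCA, and AT10 overlapped FCA through its first library. Between the groups in order of their mean, FCA and AT10 overlapped, while AT10 lay above AT01 by a narrow margin (47.77 against 47.74 FPKM) and AT01 above AT1.

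The log2 fold change of Bag3 was -0.51 ± 0.06 (SE) in AT1 (limma adjusted p = 0.111), -0.40 ± 0.07 in AT01 (limma adjusted p = 0.363) and -0.21 ± 0.09 in AT10 (limma adjusted p = 0.429). The exact permutation test gave 0.1 for AT1 and AT01, the smallest p that 3 libraries against 3 allow. With the 9 TCDCA libraries together the difference was -0.37 ± 0.09 (limma adjusted p = 0.257, two-sided exact permutation p = 0.00909), and 8 of the 9 lay below all FCA libraries. AT10 exceeded AT1 by 0.30 ± 0.08 (limma adjusted p = 0.669). None of these passed the limma adjustment over all records. The permutation p-values of differences between groups, here and below, are without adjustment. The share of all records under 0.05 by that test was not computed. Groups without overlap were found in 19.9% of all records in AT10 and in AT1 and in 14% in AT01 against FCA, and in 2, 3 and 2 of the 9 partners.

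Of the markers of contractile cells, Acta2 and Smtn were lower without overlap in all TCDCA libraries, and the others were not. In that comparison 2.86% of all tested records had groups without overlap. The highest TCDCA and lowest FCA values were close, at 255.5 and 263.19 FPKM for Acta2 and 36.07 and 36.73 for Smtn. Of the 7 smooth muscle and myofibroblast markers 6 were found, 5 were tested and 1 was below 1 FPKM in all libraries. Their sum was 331 to 441 FPKM in FCA, 277 to 311 in AT1, 239 to 309 in AT01 and 170 to 322 in AT10, so all TCDCA libraries lay below all of FCA, but most of that sum is Acta2. Acta2 averaged 317 ± 53.5 FPKM (SD, n = 3) in FCA and 221 ± 41.8 (n = 9) in TCDCA (limma adjusted p = 0.347), and Smtn, which encodes smoothelin of the contractile apparatus, averaged 37.3 ± 0.892 and 29.9 ± 3.91 (limma adjusted p = 0.339). Flnc, a filamin that the Bag3 complex handles, is not on this marker list. Its log2 fold change was -0.20 ± 0.14 in AT10, with overlap (limma adjusted p = 0.587). It was -0.19 ± 0.08 in AT1 (limma adjusted p = 0.453) and -0.33 ± 0.06 in AT01 (limma adjusted p = 0.363), both without overlap. Groups without overlap were found in 19.9% and 14% of all records in AT1 and AT01 against FCA. Cnn1, Myh11 and Lmod1 overlapped between TCDCA and FCA with log2 fold changes of 0.02, -0.018 and -0.0073, and the 5 genes had medians of 0.048 in AT1 and 0.004 in AT01, with 3 of the 5 positive at each of these doses, and of -0.24 in AT10, where none was. The part of these markers in the values of Bag3 was not tested, and in bulk RNA fewer cells of a type and less RNA per cell cannot be told apart.

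Dnajb1, the J-domain protein that hands clients to HSP70, varied most within AT1. Its values were 11.92, 16.02 and 9.71 FPKM in FCA, 9.95, 14.61 and 15.80 in AT10, 10.11, 29.92 and 27.23 in AT1, and 16.36, 16.12 and 10.50 in AT01. In AT1, 2 libraries stood above all others and the third among the lowest. The log2 fold change in AT1 was 0.68 ± 0.43 (limma adjusted p = 0.56). Without AT1 replicate 1 it was 1.15 (limma adjusted p = 0.455), past the 2 limits of the study's criterion. With all libraries it was not called, so the criterion was met only by leaving out a library that goes against it.

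The small heat shock proteins other than Hspb8 spread differently. Hspb1, which caps actin filaments and protects cells from stress, measured 20.89, 13.80 and 12.03 FPKM in FCA, 11.39, 10.91 and 8.16 in AT10, 10.64, 10.29 and 9.87 in AT1, and 8.81, 16.60 and 9.85 in AT01. AT10 and AT1 lay below all of FCA, while AT01 replicate 2 was above 2 of the 3 FCA libraries. The log2 fold change was -0.55 ± 0.23 in AT10 (limma adjusted p = 0.427) and -0.52 ± 0.20 in AT1 (limma adjusted p = 0.439). The 9 TCDCA libraries together gave -0.49 ± 0.18 (limma adjusted p = 0.356, two-sided exact permutation p = 0.0318 without adjustment), and 8 of the 9 were below all of FCA.

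Cryab, the small heat shock protein also known as αB-crystallin, measured 23.00, 35.66 and 32.28 FPKM in FCA. In the 9 TCDCA libraries it ranged from 19.65 to 25.69 with a median of 24.5. One FCA library thus lay within the TCDCA range and the others above it. The log2 fold change of the 9 against the 3 was -0.31 ± 0.11 (limma adjusted p = 0.35, two-sided exact permutation p = 0.0364 without adjustment), and 2 of the 9 were below all of FCA.

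Hspb6, a small heat shock protein of muscle, was the most variable partner, with 3.45 to 21.21 FPKM and a CV of 52.8%. Low and high values occurred within the same group, since FCA held 6.30, 6.48 and 21.21 FPKM and AT01 held 12.47, 19.16 and 3.45. AT10 held 10.62, 20.86 and 7.55 FPKM, and AT1 held 6.31, 10.93 and 17.29. All groups overlapped, and the largest difference from FCA was 0.28 ± 0.56 in AT10 (limma adjusted p = 0.845). Hspb7 was the lowest of the 10 genes, at 2.54 to 4.13 FPKM in 11 libraries and 0.82 in AT1 replicate 2.

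The refolding chaperones differed from each other in their steadiness. Hspa8 was the most abundant of the 10 genes in 11 libraries, at 104.85 to 123.59 FPKM, and its CV of 4.73% was among the smallest, with only 1.36% of tested records below it and a median of 15.1% over all. FCA libraries held 104.85, 110.21 and 109.67 FPKM, and all 3 values were exceeded by 8 of the 9 TCDCA libraries. The difference was 0.09 ± 0.05 on the log2 scale, for which limma gave an adjusted p of 0.468 and the two-sided exact permutation test 0.0273.

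Hsp90aa1, the stress-inducible cytosolic HSP90, measured 40.62, 39.38 and 48.77 FPKM in FCA and 61.76, 69.38 and 71.51 in AT10. In AT1 it measured 53.96, 42.88 and 66.98, and in AT01 33.27, 48.12 and 71.65. All of AT10 lay above all of FCA, whereas AT1 and AT01 overlapped both. The log2 fold change in AT10 was 0.65 ± 0.11 (limma adjusted p = 0.129, exact permutation p = 0.1), in AT1 0.32 ± 0.18 (limma adjusted p = 0.511) and in AT01 0.18 ± 0.28 (limma adjusted p = 0.884). AT10 and AT01 overlapped and differed by 0.46 ± 0.27 (limma adjusted p = 0.867), so a difference between the doses was not shown.

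Hsf1, the transcription factor, had means of 7.49 ± 1.16 FPKM (SD, n = 3) in FCA, 8.03 ± 0.766 in AT10, 6.35 ± 1.10 in AT1 and 7.05 ± 1.64 in AT01. AT10 lay above AT1 without overlap, by 0.30 ± 0.14 on the log2 scale (limma adjusted p = 0.748). This was also true of Bag3 and Cryab, which makes 3 of the 9 partners, against 13.9% of all records in that comparison. Between AT10 and AT1 the criterion called 0.594%, the adjusted p 0.258% and an unadjusted p under 0.05 6.46% of all records, and 0, 0 and 1 of the partners, the 1 being Bag3. Between AT10 and AT01 these shares were 0.672%, 0.0689% and 4.97%, and between AT1 and AT01 they were 0.568%, 0.129% and 3.43%, with 0 partners by any of the 3 rules. In both of the latter comparisons Bag3 was the single partner without overlap, where 11.1% and 8.6% of all records had none.

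Across the wider chaperone lists, 1 of 71 other genes passed an adjusted p under 0.05. This was Cacybp, a protein that binds the Siah ubiquitin ligase and HSP90. It measured 15.82, 16.91 and 16.63 FPKM in FCA, 26.63, 25.07 and 25.75 in AT10, 9.49, 5.66 and 11.58 in AT1, and 12.65, 17.24 and 29.18 in AT01. AT10 stood above FCA and AT1 below it, both without overlap, and AT01 overlapped FCA and AT10 and lay above AT1.

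Cacybp rose in AT10 by 0.62 ± 0.06 on the log2 scale (limma adjusted p = 0.0428), and this call was lost when any 1 of the 6 libraries was left out, with adjusted p from 0.0734 to 0.122. In AT1 the difference was -0.87 ± 0.24 (limma adjusted p = 0.42). Between AT10 and AT1 it met the criterion of the study, at 1.48 ± 0.24 (limma adjusted p = 0.215), and it did so between AT1 and AT01, at -1.03 ± 0.37 (limma adjusted p = 1). The criterion called 0.594% and 0.568% of all tested records in these comparisons.

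**Figure D4:**
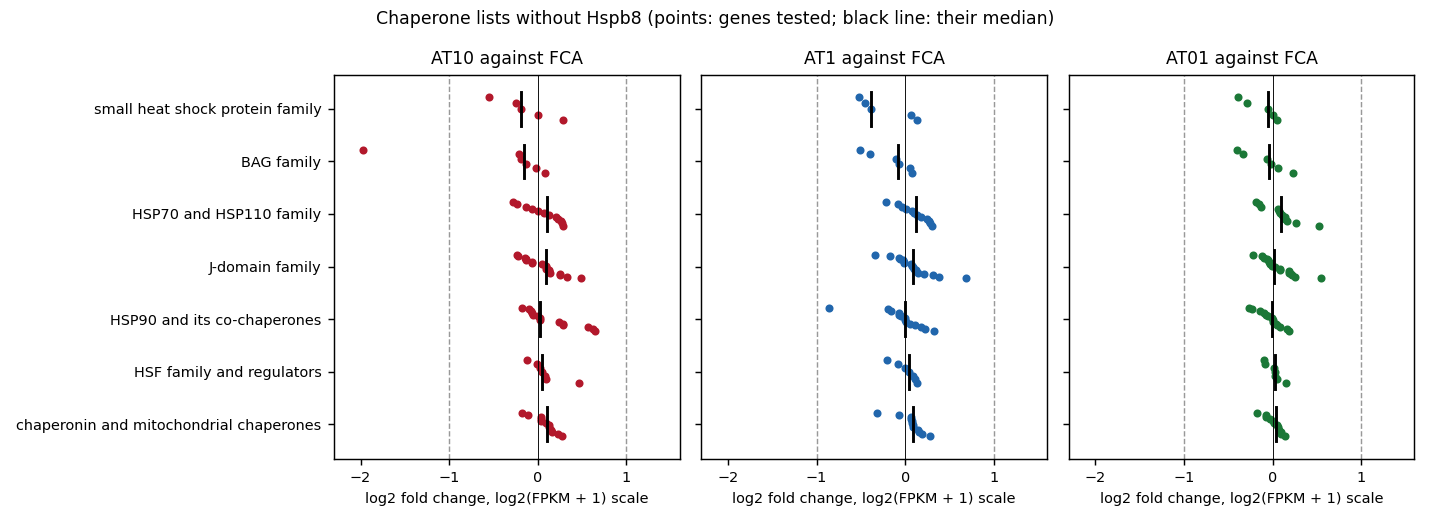
Log2 fold changes against FCA on the log2(FPKM + 1) scale (horizontal axis) of the tested genes of 7 chaperone lists, Hspb8 left out; each point is a gene, some genes are on more than 1 list, and the black line is the list's median. The medians lie between -0.39 and 0.12, and 1 point, Bag5 in AT10 at -1.97, lies outside the dashed lines at -1 and 1.

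Over all tested records the median log2 fold changes were -0.009, 0.016 and 0.002 at the doses of 10, 1 and 0.1 µM, and no list was tested against them. Of the 12 tested genes of the HSP70 and HSP110 list, led by Hspa5 of the endoplasmic reticulum, Hspa8 and mitochondrial Hspa9, 7, 9 and 9 had a positive fold change in AT10, AT1 and AT01, and the medians were 0.10, 0.12 and 0.09. Of the 18 J-domain genes, led by Dnaja1, Dnajb11 and Dnaja2, 11, 11 and 9 did. Of the 12 chaperonin and mitochondrial chaperones, led by Hspe1, Cct7 and Cct4, 10, 10 and 8 did. None of the genes on these 3 lists passed the adjusted p or the criterion in any of the comparisons with FCA.

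In the BAG family 5, 4 and 4 of the 6 genes had a negative fold change, and the medians were -0.16, -0.084 and -0.045. Its largest difference was that of Bag5, with 0.48 ± 0.738 FPKM (SD, n = 3) in AT10 against 7.66 ± 6.64 in FCA, a log2 fold change of -1.97 ± 1.07 (limma adjusted p = 0.513), and 0.058 ± 1.42 and 0.065 ± 1.41 in AT1 and AT01. Its leading genes were Bag6, a chaperone for proteins bound for membranes, Bag3 and Bag1. Bag6 had 59.81 to 62.55 FPKM in FCA against 44.03 to 48.47 in AT1, with no overlap, and a log2 fold change of -0.40 ± 0.06 (limma adjusted p = 0.211). Of the 5 small heat shock genes tested beside Hspb8, 4, 3 and 4 had a negative fold change. Their medians were -0.19, -0.39 and -0.06. The negative counts include values near 0, at -2e-04 for Hspb11, also on that list, in AT10 and at -0.0017 for Hspb6 in AT01. The HSP90 list (14 tested, led by Hsp90ab1, Hsp90b1 and Ptges3) was split 8 to 6 in AT10 and 7 to 7 in AT1 and AT01. Of the 7 tested genes of the HSF list, led by Vcp, Hsbp1 and Rpa1, 5, 4 and 5 were positive.

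The genes known as targets of Hsf1 showed no shared direction. Of 17 tested, 10 had a positive fold change in AT10, 9 in AT1 and 10 in AT01, with medians of 0.03, 0.01 and 0.03, and Cacybp in AT10 was the gene that passed the adjusted p. Its most abundant members were Hsp90ab1, Hspe1 and Serpinh1. Of the 9 tested genes of chaperone-assisted selective autophagy other than Hspb8, led by Flna, Hspa8 and Sqstm1, 4, 4 and 3 were positive and 0 passed the adjusted p or the criterion against FCA. At an unadjusted limma p under 0.05 stood 1, 1 and 2 of them in AT10, AT1 and AT01, against 11.9%, 11% and 6.6% of all tested records. No gene record carried the symbol of Hspa1a or Hspa1b, the classical heat-inducible HSP70 genes, or of Stub1, the ubiquitin ligase of the Bag3 complex. These genes could therefore not be tested, and the counts above are without them.

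Pairs of these genes were also compared over the 12 libraries, a set of relations chosen after the data were seen. Of 36 pairs of partners and 13 pairs of Hsp90aa1 with another gene of the HSP90 list, 5 had an adjusted p under 0.05 by Pearson's r and 2 by Spearman's rho as well, with 100000 permutations and the adjustment over all 49.

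Hsp90aa1 went with Ppid, a cyclophilin that docks on HSP90 (r = 0.872, permutation p = 7e-05, adjusted 0.00343, and rho = 0.881, p = 0.00029, adjusted 0.0142). Without the 2 libraries farthest from the median of Hsp90aa1 r was 0.826, and on deviations from the group means it was 0.908. It went likewise with Ptges3, the p23 co-chaperone (r = 0.839, permutation p = 0.00029, adjusted 0.00555, and rho = 0.825, p = 0.00171, adjusted 0.0419), where r was 0.758 without the 2 libraries and 0.865 within groups. The range of Ptges3 was 31.2 to 111 FPKM and that of Ppid 11.2 to 25.4.

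Hsp90b1, the HSP90 of the endoplasmic reticulum, had r = 0.818 (permutation p = 0.00034, adjusted 0.00555) and rho = 0.713 (p = 0.0124, adjusted 0.152), with r = 0.815 without the 2 libraries. Trap1, the mitochondrial HSP90, ran against Hsp90aa1, at r = -0.749 (permutation p = 0.00446, adjusted 0.0437) and rho = -0.783 (p = 0.0038, adjusted 0.0621), with r = -0.724 without the 2 libraries. On deviations from the group means these were 0.766 and -0.534. FPKM values of a library share its total, and depth per library was not used here.

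**Figure D5:**
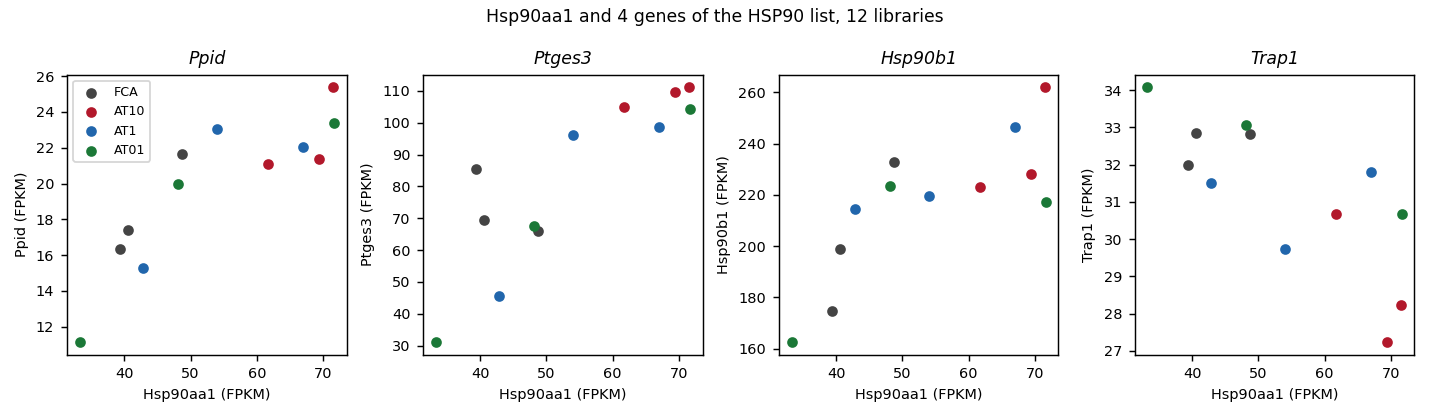
FPKM of Ppid, Ptges3, Hsp90b1 and Trap1 (vertical axes, which do not start at 0) against FPKM of Hsp90aa1 (horizontal axes) in the 12 libraries, coloured by group. The first 3 go up with Hsp90aa1 and Trap1 goes down, and AT01 alone spans 33.3 to 71.7 FPKM of Hsp90aa1.

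The single pair of partners past the adjustment was Cryab with Bag3, at r = 0.739 (permutation p = 0.00253, adjusted 0.031) and rho = 0.692 (p = 0.0159, adjusted 0.156). It rests on 2 FCA libraries, since r was 0.355 without the 2 libraries farthest from the median of Cryab, and within groups it was 0.473.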

How the data were processed

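Per the labels and the paper's methods, the authors trimmed reads of strand-specific poly(A) libraries with cutadapt, aligned them with HISAT2 and assembled transcripts with StringTie. They deposited FPKM, computed with StringTie and Ballgown, in 1 table of 22442 gene records and 12 libraries. The study's methods give versions of HISAT2, StringTie and Ballgown and its text lists the reads per library. These are not used here, and the genome build is not given in the sources used here.

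FPKM were tested as log2(FPKM + 1) with limma 3.58.1 (R 4.3.3, lmFit, eBayes with trend), 2 groups at a time and the 9 TCDCA libraries against 3 FCA for records averaging 1 FPKM or more. Differences of means were also tested by two-sided exact permutation, whose smallest p is 0.1 for 3 against 3 and 0.00455 for 9 against 3. These p-values were not adjusted. Python 3.11.15, SciPy 1.17.1 and Matplotlib 3.10.9 were used otherwise. The members and gene lists were chosen with earlier results of these data known. Named were all members, from each list the called genes and the 3 highest by mean, and records parted as Hspb8. Alternatives were median-of-ratios scaling, sums by gene name, a pseudocount of 0.1, a limit of 10 FPKM or none on the mean, a Ballgown-style F test, 1 fit over 12 libraries, a replicate block and each library left out. The fits were tested on simulated data.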

Additional observations from a re-analysis of the deposited data

Results flagged for a closer look

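Over the 9 TCDCA libraries taken as 1 group, 2 of the 10 genes had a library far from the rest, by a rule on the gap to the nearest value over the whole range (Dixon's 95% limit) that chance meets in about 1 group in 20. Hspb1 was at 16.6 FPKM in AT01 replicate 2, with a gap of 0.617 of its range. Hspb7 was at 0.82 FPKM in AT1 replicate 2, with a gap of 0.595 of its range. The 9 libraries span 3 doses, and groups of 3 libraries were not examined in this way.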

How the results depend on the processing

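No partner of Hspb8 passed an adjusted p under 0.05 under any of the alternatives run, in any of the 7 comparisons. Under the criterion of the study the count was 0 except without AT1 replicate 1, when it was 1 (Dnajb1) in AT1 against FCA and in AT10 against AT1, so that leaving out a library gave a range of 0 to 1 there. The count of partners parted by the levels of Hspb8 was 0 to 1 with a library left out, the 1 being Bag3 without FCA replicate 3, and it was 0 under scaling and sums by name. The count of other records parted as Hspb8 was 0 under all 6 alternatives.

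The sign turned in 14 of 605 values of named genes, all with a library left out and none of them called. The log2 fold change of Hspb6 then ranged from -0.098 to 0.81 in AT10, -0.19 to 0.66 in AT1, -0.46 to 0.63 in AT01 and -0.14 to 0.67 in TCDCA. Dnajb1 ranged from -0.061 to 0.28 and Hsf1 from -0.024 to 0.16 in AT10. In AT01, Hspb7 ranged from -0.18 to 0.039, Hsf1 from -0.21 to 0.093 and Hsp90aa1 from -0.092 to 0.45. Bag3 in AT1 kept -0.55 to -0.48, with adjusted p from 0.0789 to 0.563, and Hsp90aa1 in AT10 kept 0.59 to 0.74, with adjusted p from 0.104 to 0.431.

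Cacybp in AT10 was past the adjusted p under 5 of 14 alternatives, and its adjusted p ranged from 0.0349 to 0.467. With Spearman's rho, 3 of the 5 pairs no longer passed an adjusted p under 0.05. The replicate numbers did not pair the libraries, since the correlation of same-numbered deviations was between -0.105 and 0.094 in 18 pairs, and the replicate block gave 0 calls among the partners and for Cacybp an adjusted p of 0.334. The reads behind a single FPKM value are not known, and 3 libraries a group limit what can be called.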
